A study of Mus musculus with 4 samples.

Results

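Interferon-stimulated genes outside the oligoadenylate synthetase and interferon-induced GTPase families were compared between wild-type and Irf4-deficient CD4+ T cells 2 days after activation. The set comprised 45 genes named by symbol, of 45526 genes or unnamed transcripts on the array. A gene entered through probes whose accession mapped to its symbol, and its brightest probe stood for it. Probes matched 42 of the 45 genes, and all 42 were among the 20505 genes tested, while Ifi203, Mx1 and Mx2 were not analysed here. Of the 42, 39 were well above background on all 4 arrays. The other 3, Ifit3b, Ddx60 and Ifi44, entered the test through the knockout arrays alone. That filter itself favoured higher knockout signal, so their direction is not a finding.

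The samples came from spleens of male C57BL/6 mice, either wild type (WT) or Irf4-/-, whose age the labels do not give. Naive CD4+ T cells, high in CD62L and low in CD44, were activated with an antibody to CD3e at 1 µg per ml in the presence of syngeneic antigen-presenting cells treated with mitomycin C. Living CD4+ T cells were sorted again on day 2, and total RNA from each sample was hybridised to 1 one-colour array, with 2 arrays per genotype. The labels speak of 2 independent experiments and do not say how many mice each sample pooled, so p-values measure only the spread between these arrays. Levels below are on a log2 scale on which the 75th percentile of an array is 0, and differences are Irf4-/- minus WT on the same scale.

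Type I interferons act through the receptor chains Ifnar1 and Ifnar2, which engage the kinases Jak1 and Tyk2. These activate a transcription factor complex that contains Stat2 and Irf9, which binds the interferon-stimulated response element in the promoters of their target genes. The targets encode sensors of foreign nucleic acid, proteins that block viral replication, the ubiquitin-like modifier Isg15 with its enzymes, and feedback inhibitors. Irf4, which T cells induce after antigen receptor stimulation, belongs to the same family of DNA-binding proteins as Irf9 and Irf7.

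Short stretches of the members' promoters are shown to make the shared response element visible. The core searched was GAAANNGAAA, on both strands and with overlapping matches allowed, in RefSeq windows of assembly GRCm38.p6 from 250 bases before to 50 bases after each annotated start. Of 32 members with such a window, 19 (59.4%) held the core, against 1079 of 27025 genes (3.99%) with a window and 3.44% of 32851 windows. Each sequence is given 5′ to 3′ on the gene's strand with the core in capitals. Matches on the opposite strand read from TTTC. The stretches of Ifit1, Ifit3, Ifit3b, Isg15, Ddx60, Rsad2 and Ifi205 belong to members with fitted log2 differences above 1. For Ifit3b and Ddx60, below background in WT, the fitted value is not a measured size. The bound of Ddx60 was only 1.68-fold. Those of Bst2 and Socs1 are shown because they hold the core in members with small differences.
Ifit1: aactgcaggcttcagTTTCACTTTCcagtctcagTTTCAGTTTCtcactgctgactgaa
Ifit3: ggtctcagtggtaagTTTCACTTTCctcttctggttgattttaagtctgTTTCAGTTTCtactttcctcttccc
Ifit3b: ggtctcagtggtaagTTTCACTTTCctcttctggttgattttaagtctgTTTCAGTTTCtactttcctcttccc
Isg15: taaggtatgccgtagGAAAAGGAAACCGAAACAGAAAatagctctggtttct
Ddx60: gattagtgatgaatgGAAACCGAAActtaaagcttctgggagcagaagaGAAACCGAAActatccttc
Rsad2: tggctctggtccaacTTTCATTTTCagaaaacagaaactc
Ifi205: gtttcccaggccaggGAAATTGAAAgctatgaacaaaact
Bst2: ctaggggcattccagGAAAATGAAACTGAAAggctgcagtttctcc
Socs1: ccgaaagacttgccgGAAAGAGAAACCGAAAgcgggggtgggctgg

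On GRCm38.p6 the stretches lie at chr19:34640770-34640828 (Ifit1, plus strand), chr19:34583358-34583431 (Ifit3, plus strand) and chr19:34607754-34607827 (Ifit3b, plus strand). That of Isg15 lies at chr4:156200860-156200911 on the minus strand, and that of Ddx60 at chr8:61928019-61928086 on the plus strand, ending 1 base before the start. The others are on the minus strand, at chr12:26456548-26456587 (Rsad2), chr1:174031865-174031904 (Ifi205), chr8:71537572-71537617 (Bst2) and chr16:10785589-10785634 (Socs1). All 9 lie before the annotated start of their gene. The stretch shown of Ifit3 and of Ifit3b is the same letter for letter, and their full windows were 94.5% identical over 274 aligned columns. Whether the Ifit3 and Ifit3b probes tell the transcripts of these paralogues apart was not tested, and their values are uncertain to that extent. Among members above background on all 4 arrays, the 16 with the core had a median difference of 1.10 (range -0.77 to 2.75), and the 12 with a window but no match had a median of 0.44 (range 0.06 to 1.80). The ranges overlap widely. Socs1, Stat2 and Trim30a held the core and differed by 0.18, 0.21 and 0.24, whereas Samd9l and Xaf1 had no match in this window and differed by 1.80 and 1.70. A match is a description of the letters, not evidence of binding.

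Per array, 25677 to 28725 of the 56605 probes cleared the background threshold. The correlation between arrays over the tested genes was r = 0.992 for the WT pair and r = 0.989 for the knockout pair, and r = 0.978 to 0.986 for mixed pairs. These correlations are across genes, which are not independent replicates. Both replicate 1 arrays lay in slide row 1 and both replicate 2 arrays in row 2. Both WT arrays lay in slide column 1 and the knockout arrays in columns 3 and 2, so column and genotype cannot be told apart. All 7 CD4 T cell markers with a probe were above background. Irf4 itself read 5.03 and 4.74 on the WT arrays and 4.23 and 4.04 on the knockout arrays, a difference of -0.75 ± 0.20 (SE; limma adjusted p = 0.231). Where its probe lies relative to the deleted part is not given here, and this reading does not check the genotype.

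Across the 42 members the signal lay mostly on the high side in Irf4-/- cells, but few members passed the test one by one. The members were chosen with earlier results of these data known. Their counts beside the shares of all genes, here and below, are therefore a description only. Differences were above 0 for 41 members, with a median of 1.10, quartiles of 0.29 and 1.63 and a lowest value of -0.77, beside a median of -0.02 over all genes tested. The 41 include Ifit3b, Ddx60 and Ifi44, whose direction the filter favoured. Over the 39 members above background on all arrays the median was 0.94. The largest difference measured on all 4 arrays was 4.81. A fitted log2 difference of 1 or more was seen for 22 members, where 3.74% of all genes reached it. These 22 are 19 of the 39 members above background on all arrays and the 3 whose WT signal was below background, for which the fitted value is not a measured size. Both knockout arrays lay above both WT arrays for 26 members (17.9% of all genes) and below both for 1, Phf11b (21.3% of all genes). After adjustment over all genes, 2 members passed the test as higher, Ifi27 and Ifi205, and none as lower (limma, threshold 0.05). Of all genes, 0.493% passed as higher and 0.736% in either direction. At an unadjusted p under 0.05, 17 members were higher, against 6.35% of all genes, and 1 was lower. Ifit3b and Ddx60 are counted both in the 26 and in the 17. Leaving out 1 array moved these summaries. Neither of the 2 calls held without WT replicate 1 or without WT replicate 2. The median of 1.10 became 0.59 without WT replicate 1 and 0.62 without knockout replicate 2. With the replicate number as a replicate block the count of 2 became 0, and of all genes tested 0 were called. In sorted populations of this kind, fewer cells of a type and less RNA per cell cannot be told apart.

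**Figure D1:**
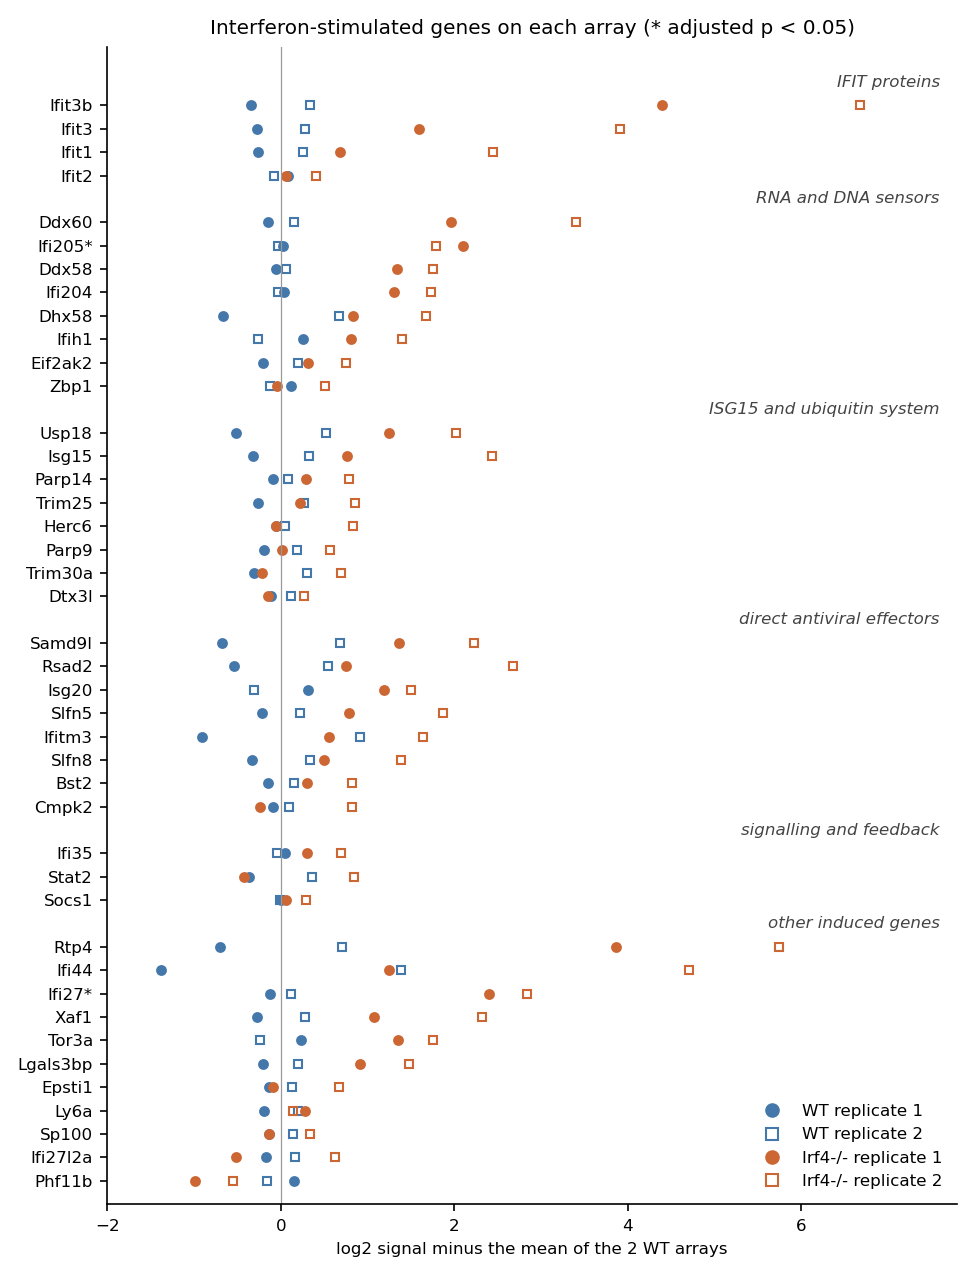
Level of each of the 42 members on each array, as log2 signal minus the mean of the 2 WT arrays, grouped by role; filled circles are replicate 1, open squares replicate 2, blue WT and orange Irf4-/-, and an asterisk marks an adjusted p under 0.05 (limma). For 26 members both orange points lie right of both blue points, and the open orange square is the rightmost point for 39.

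The IFIT proteins, which bind foreign RNA and hold it back from translation, included a member detected in knockout cells only. Ifit3b was not well above background on either WT array, where it read -6.01 and -5.33, and stood at -1.27 and 1.02 on the knockout arrays. All of its knockout signal lay far above the WT readings, and it was at least 20.0-fold higher, a bound that sets the knockout mean against the lowest signal that counts as above background in WT. The bound was 9.04-fold without knockout replicate 2 and 44.0-fold without knockout replicate 1. Its adjusted p was 0.0673, so it did not pass, and with normexp background correction its fitted log2 difference was 2.06. Ifit3, its paralogue and a partner of the other IFIT proteins, read -3.84 and -3.28 in WT and -1.97 and 0.35 in Irf4-/- cells. The groups did not overlap, but the knockout arrays lay 2.31 apart, and the difference of 2.75 ± 0.77 (SE) had an adjusted p of 0.260. It was 1.59 without knockout replicate 2 and 1.29 with normexp. Ifit1, which recognises RNA lacking the host's cap modification, read -3.39 and -2.87 against -2.45 and -0.68. Here too knockout replicate 2 was far above the other 3 arrays, and the difference of 1.57 ± 0.61 did not pass (adjusted p = 0.442). It was 0.68 without that array and 0.52 with normexp. Ifit2 was the exception in this family, with overlapping groups and a difference of 0.23 (adjusted p = 0.844).

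Among the sensors of RNA and DNA, 8 of 9 were measured, and all 8 differences were above 0 (median 1.39). Both knockout arrays lay above both WT arrays for 7 of them, Ddx60 included (17.9% of all genes). Ifi205 encodes a PYHIN protein, a family that binds DNA in the cytosol and nucleus. It rose 3.85-fold in Irf4-/- cells, from -2.89 and -2.95 in WT to -0.82 and -1.13, a difference of 1.95 ± 0.19 (SE; limma adjusted p = 0.0392). The WT arrays agree to within 0.06, and Ifi205 is 1 of the 2 members whose level was lower on knockout replicate 2 than on replicate 1. A second Ifi205 probe did not clear background and differed by 0.62. The call was lost without either WT array (adjusted p = 0.126 and 0.161), with the replicate block (adjusted p = 0.105) and with quantile normalization (adjusted p = 0.0873). With normexp the difference was 0.89, less than the 1.95 of the main setting, and passed the test (adjusted p = 0.00829). Ifi204, a neighbour of the same family, differed by 1.52 (adjusted p = 0.0684). PYHIN genes resemble each other in sequence, and probe specificity within the family was not tested.

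Of the cytosolic RNA helicases, Ddx58, which encodes RIG-I, read 2.26 and 2.38 in WT and 3.66 and 4.07 in Irf4-/- cells. The genotypes were clearly separated, with a difference of 1.55 ± 0.21 (SE) and an adjusted p of 0.0657, and its 3 other passing probes gave differences from 1.24 to 2.07. Ddx60, a helicase-like antiviral protein, was not above background in WT (-6.53 and -6.23) and reached -4.42 and -2.98 in knockout cells. Its bound was only at least 1.68-fold higher, because the knockout signal was itself dim (adjusted p = 0.117), and 1.02-fold without knockout replicate 2. Ifih1, encoding MDA5, and Dhx58, encoding their regulator LGP2, differed by 1.10 and 1.25 without overlap between genotypes (adjusted p = 0.242 and 0.489), that of Dhx58 being 0.58 without WT replicate 1 and 1.92 without WT replicate 2. Smaller differences were seen for Eif2ak2, the kinase PKR that halts translation, at 0.53 (adjusted p = 0.554), and for Zbp1, a sensor of Z-form nucleic acid, at 0.23 with overlapping groups (adjusted p = 0.892).

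The Isg15 and ubiquitin group split into a pair with differences above 1 and 6 members with smaller ones. None of its 8 members passed the test, all differences were above 0, and the median was 0.46. Isg15, the ubiquitin-like modifier itself, read 2.63 and 3.27 in WT and 3.71 and 5.39 in knockout cells. The groups did not overlap, but knockout replicate 2 lay 1.68 above replicate 1, and the difference of 1.60 ± 0.60 (SE) had an adjusted p of 0.411. It was 0.76 without knockout replicate 2. Usp18, which strips Isg15 from its targets and blocks signalling at Ifnar2, read 0.96 and 2.00 against 2.73 and 3.50, a difference of 1.64 ± 0.44 (adjusted p = 0.244). The replicate 2 arrays were the higher ones in both genotypes, so that the differences within replicate numbers, 1.77 and 1.50, lay close together. Parp14, an ADP-ribosyltransferase, read 2.96 and 3.13 against 3.33 and 3.83, a difference of 0.54 ± 0.24 (adjusted p = 0.510). The groups overlapped for the ligases Trim25 (0.54) and Herc6 (0.39), for Parp9 (0.29) and its partner Dtx3l (0.06), and for Trim30a (0.24), with adjusted p from 0.665 to 0.984.

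Direct antiviral effectors gave 8 measured members of 10, all with differences above 0 (median 1.21), and none passed the test. Samd9l, which restricts poxviruses and cell growth, read 0.60 and 1.95 in WT and 2.63 and 3.51 in Irf4-/- cells. The lower knockout array exceeded the higher WT array, and the difference was 1.80 ± 0.54 (SE; adjusted p = 0.295). Rsad2, encoding the radical SAM enzyme viperin, read -3.18 and -2.10 against -1.89 and 0.04. The nearest arrays of the 2 genotypes were only narrowly separated, and the difference was 1.71 ± 0.72 (adjusted p = 0.490), or 0.75 without knockout replicate 2. Isg20, an exonuclease that degrades RNA, read 3.25 and 2.63 against 4.13 and 4.44, and its difference of 1.34 ± 0.28 had the lowest adjusted p of the group, 0.144. The Schlafen genes Slfn5 and Slfn8 differed by 1.33 and 0.94 without overlap, although a second Slfn8 probe gave 0.39. Bst2, the virus-tethering protein tetherin, differed by 0.56, also without overlap. Ifitm3, which blocks viral entry, differed by 1.09 with overlapping groups, a value that was 0.18 without WT replicate 1 and 2.00 without WT replicate 2. Cmpk2, a nucleotide kinase gene beside Rsad2, differed by 0.29 with overlap. Adjusted p for these 5 lay between 0.305 and 0.923.

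The signalling and feedback members moved little. Ifi35, an interferon-induced leucine zipper protein, read 5.01 and 4.92 in WT and 5.27 and 5.66 in knockout cells (difference 0.50 ± 0.21 SE, adjusted p = 0.486). Stat2, a subunit of the complex that binds the response element, read 1.76 and 2.49 against 1.70 and 2.97, with complete overlap (0.21 ± 0.49, adjusted p = 0.966). Socs1, the feedback inhibitor of the Jak kinases, read 4.06 and 4.05 against 4.12 and 4.35 (0.18 ± 0.18, adjusted p = 0.879). All 3 lay within a log2 difference of 0.50, below the group medians of the IFIT, sensor and effector genes. The median of the Isg15 and ubiquitin group, 0.46, lay below the difference of Ifi35. Usp18, which blocks signalling at Ifnar2, is counted in that group and differed by 1.64.

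The remaining 11 members included the one with the lowest adjusted p of the set. Ifi27, a small mitochondrial membrane protein gene, rose 6.13-fold in Irf4-/- cells, from 3.90 and 4.15 to 6.42 and 6.86, a difference of 2.62 ± 0.23 (SE; limma adjusted p = 0.0318). The gap between the genotypes was several times that between arrays of 1 genotype, and a second Ifi27 probe differed by 2.86. Its adjusted p was 0.106 and 0.123 without WT replicate 1 or 2, 0.0967 with the replicate block and 0.0873 with quantile normalization. Its relative Ifi27l2a had a mean difference of 0.05 (adjusted p = 0.994) made of opposite values, -0.35 within number 1 and 0.46 within number 2, with the knockout arrays the lowest and the highest of the 4.

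Rtp4, which encodes a chaperone of membrane receptors, read -1.97 and -0.56 in WT and 2.60 and 4.48 in Irf4-/- cells. This is a difference of 4.81 ± 0.76 (SE), the largest among members above background on all 4 arrays, with arrays of each genotype more than 1 log2 unit apart and an adjusted p of 0.0839. Ifi44, a cytoplasmic antiviral protein, was not well above background on either WT array (-6.82 and -4.05) and read -4.19 and -0.73 on the knockout arrays. WT replicate 2 lay above knockout replicate 1, so the groups overlapped. Its bound was at least 3.94-fold higher, with an adjusted p of 0.560, and rested on knockout replicate 2, without which it was 1.19-fold. Xaf1, an antagonist of an inhibitor of apoptosis, differed by 1.70, the torsin gene Tor3a by 1.55 and Lgals3bp, a secreted galectin-binding glycoprotein, by 1.20, each without overlap (adjusted p = 0.248, 0.090 and 0.177). Epsti1, Ly6a (Sca-1) and the nuclear body protein gene Sp100 differed by 0.29, 0.21 and 0.10, with overlap and adjusted p from 0.878 to 0.965. Phf11b, a PHD-finger protein gene, was the only member with lower signal in knockout cells, at 5.57 and 5.25 in WT against 4.42 and 4.86. Its groups did not overlap, and the difference of -0.77 ± 0.24 did not pass (adjusted p = 0.311).

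The direction was mostly shared between the replicate numbers, while the size was not. Higher knockout signal within both numbers was seen for 33 members, where 29.3% of all genes showed it. The median difference of the members was 0.86 within number 1 and 1.02 within number 2, beside 0.01 and -0.04 over all genes. For 36 of 42 members the difference was larger within number 2, against 10197 of all 20505 genes tested. Across the 42 members the differences of the 2 numbers correlated at r = 0.914, and across all genes at r = 0.625. These are descriptions across genes that share arrays. Ifit3b, Ddx60 and Ifi44, whose direction the filter favoured, are included in the 33 members and in the members' r. The differences of the 2 numbers were less than 0.5 apart for 20 members (47.6%), against 76.2% of all genes.

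**Figure D2:**
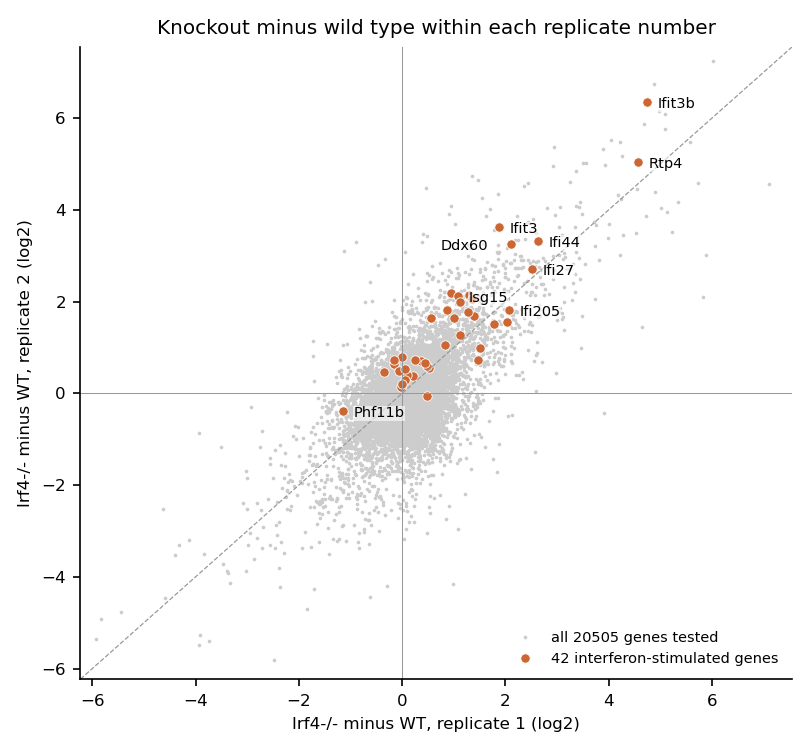
Irf4-/- minus WT log2 difference within replicate 1 (horizontal) against replicate 2 (vertical), for all 20505 genes tested (grey) and the 42 members (orange), with the line of equality dashed. Of the members, 33 lie right of and above 0 on both axes and 36 lie above the dashed line, while Phf11b is below 0 on both.

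The members also separated the arrays of 1 genotype. Signal was higher on replicate 2 than on replicate 1 for 32 members in WT (76.2%; all genes 46.2%) and for 40 in Irf4-/- cells (95.2%; all genes 41.3%). The median gap was 0.36 in WT and 0.70 in knockout cells, beside -0.03 and -0.07 over all genes. The SD between arrays was larger in knockout than in WT cells for 35 members (83.3%; all genes 51.3%), with medians of 0.49 and 0.29, against 0.17 and 0.16 over all genes. Knockout replicate 2 was the highest of the 4 arrays for 39 members (92.9%; all genes 20.9%). WT replicate 1 was the lowest for 27 (64.3%; all genes 19.0%). Knockout replicate 2 exceeded both WT arrays for 40 members, and knockout replicate 1 did so for 27, against 29.0% and 38.2% of all genes.

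The gap of a member in WT and its gap in Irf4-/- cells ran alongside each other, with r = 0.679 across the 42 members and r = 0.348 across all genes. For Ifit3b, Ddx60 and Ifi44 the WT gap was read below background, and the lowest signal counted as above background was itself higher on WT replicate 2 (-4.07) than on WT replicate 1 (-4.82). Among the other members the widest WT gaps were those of Ifitm3, Rtp4, Samd9l and Dhx58, at 1.82, 1.41, 1.36 and 1.34. Ifit3 and Ifit1 differed from these, with WT gaps of 0.56 and 0.52 and knockout gaps of 2.31 and 1.77. Replicate number coincides with slide row here, and the part of slide row in these gaps cannot be told apart from that of the replicate. In contrast Ifi205 had gaps of -0.06 and -0.30, and Ifi27 of 0.25 and 0.44.

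**Figure D3:**
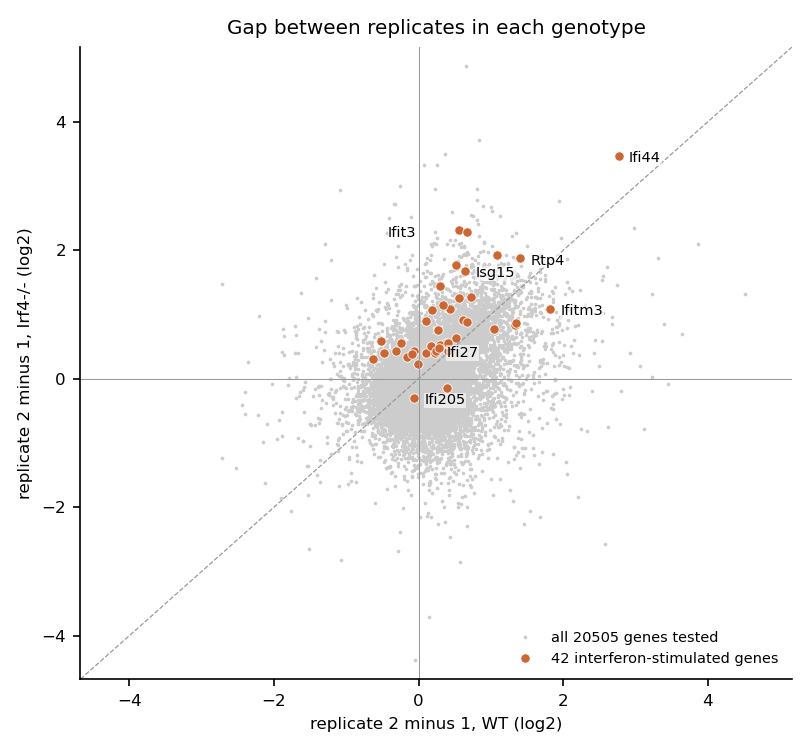
Replicate 2 minus replicate 1 in WT (horizontal) against the same gap in Irf4-/- cells (vertical), both in log2 units, for all 20505 genes tested (grey) and the 42 members (orange), with the line of equality dashed. Members lie mostly in the upper right, with 40 above 0 on the vertical axis and 32 right of 0 on the horizontal.

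Genes upstream of the members were read from lists of the interferon pathway. Of 21 interferon genes, 3 had no matched probe and 10 were not above background on both arrays of either genotype. Ifnb1 was among these, at -5.37 and -4.39 in WT and -4.99 and -3.74 in Irf4-/- cells, and above background on 1 knockout array only. No ligand of the 8 tested passed, and their median difference was 0.05. Ifna1 read -3.33 and -3.37 in WT and 0.58 and -3.80 in knockout cells. It was thus high on knockout replicate 1 alone (difference 1.74, limma adjusted p = 0.813), and its part in the members' differences was not tested. Ifng and Ifna2 differed by 0.48 and 0.46. Interferon alpha genes resemble each other in sequence, and probe specificity among them was not tested.

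None of the 5 tested receptor genes passed, with a median difference of 0.62. Ifnar1 and Ifnar2, the chains of the type I receptor, differed by -0.12 and 0.58. Ifngr1, Ifngr2 and Il10rb differed by 0.88, 0.62 and 0.62. In the JAK-STAT list, 0 of 8 passed and the median was 0.29. Irf7, an interferon-induced transcription factor that amplifies the response, read 2.79 and 3.98 in WT and 4.76 and 6.25 in Irf4-/- cells, a difference of 2.12 ± 0.63 (SE; adjusted p = 0.289). It showed the members' pattern, with replicate 2 higher in both genotypes and no overlap between them. Irf9 differed by -0.05, and Jak2 and Jak1 by -0.58 and 0.49. Among 11 tested genes of interferon induction none passed (median 0.05), with the adaptor gene Ticam1 at -0.45, the DNA sensor gene Cgas at 0.41 and Tlr7 at 0.32, where another passing Tlr7 probe gave 2.02. Negative regulators of JAK-STAT had 0 of 7 called and a median of -0.19, with Socs3 at -0.57, Socs2 at -0.46 and the phosphatase gene Ptpn1 at -0.29.

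A further list of 55 interferon-response genes contained 49 that were tested, with 36 differences above 0 and a median of 0.28. Parp12, an ADP-ribosyltransferase that inhibits translation, rose by at least 8.71-fold (adjusted p = 0.0406), from below background at -6.58 and -5.35 to -1.68 and -0.96. Ifit1bl1, an Ifit1-like gene, fell, from -2.47 and -2.76 in WT to below background at -6.79 and -6.06, at least 3.21-fold lower (adjusted p = 0.0318). It therefore ran opposite to Ifit1, Ifit3 and Ifit3b. Ifitm1 was also not above background in knockout cells, at -6.24 and -4.37 against -3.87 and -0.55 (at least 4.26-fold lower, adjusted p = 0.451). That bound was 1.35-fold without WT replicate 2. The member Ifitm3 differed by 1.09 in the other direction. Of the 49, only Parp12 and Ifit1bl1 passed the test. Each entered it only through the genotype in which it was high, so the filter itself favoured its direction and the pass is not independent of it. Class I antigen presentation genes gave 0 of 11 called, all differences above 0 and a median of 0.23, with Psmb10 at 0.58, B2m at 0.50 and H2-K1 at 0.49.

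**Figure D4:**
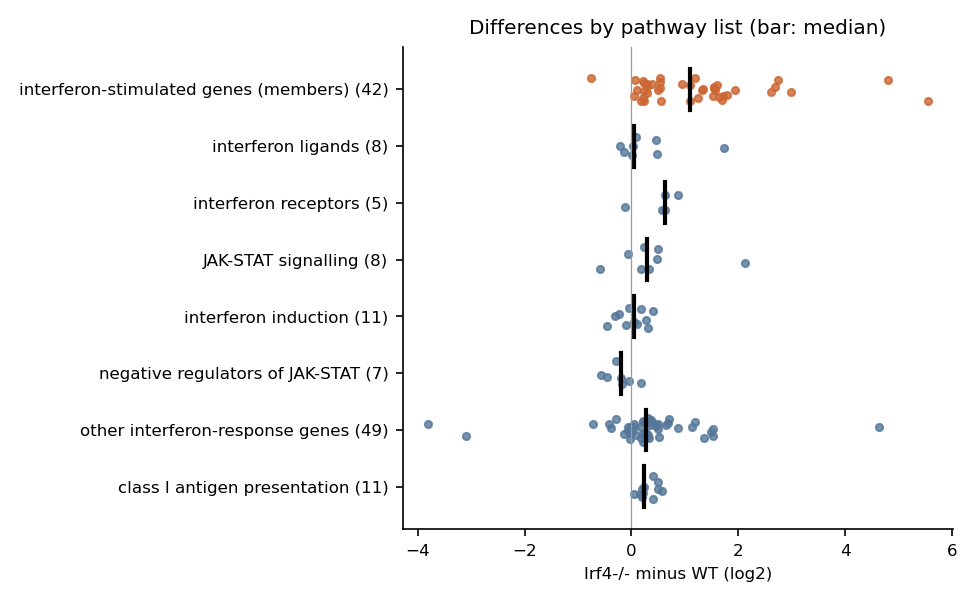
Log2 difference, Irf4-/- minus WT, of every tested gene in the members (orange) and 7 pathway lists (blue), with the number tested in brackets and the median as a black bar; points are spread vertically for visibility only. The members' median is 1.10, and the list medians run from -0.19 for the negative regulators to 0.62 for the receptors.

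Markers of other cell types were read as summed linear signal over each list, where 1 is the array's 75th percentile, and their part in the members' differences was not tested. The members summed to 715 and 867 in WT and to 862 and 1324 in Irf4-/- cells. All 8 plasmacytoid dendritic cell markers were above background on some array, with sums of 95.9 and 117 in WT and 110 and 138 in Irf4-/- cells. Siglech, a defining gene of these cells and the brightest of the list, read 5.77 and 6.13 against 5.79 and 6.17. These sums rest largely on its 1 probe. A second Siglech probe did not pass the background filter, and which of them reports the transcript was not tested. The list also holds the member Bst2. Among dimmer genes of the list, Cox6a2 had a log2 difference of 2.03 (limma adjusted p = 0.0543). Spib, Klk1 and Ccr9 differed by 1.23, 1.11 and 0.96, and Tcf4 by -0.06. Spib was above background on only 1 WT array. Of the 8, 7 differences were above 0 (46.7% of all genes). Both knockout arrays lay above both WT arrays for 6, the member Bst2 among them (17.9% of all genes). The median was 0.76, but none passed the test. Macrophage and monocyte markers summed to 294 and 415 against 411 and 468, with 8 of 12 above background and Lyz2, Adgre1, Fcgr1 and C1qc below it on every array. Ly6c2, which is also in the list of interferon-response genes, made up most of that sum, at 8.14 and 8.65 against 8.64 and 8.84. Replicate 2 was higher in each genotype in both of these sums. The plasmacytoid sum holds the member Bst2 and the macrophage sum is mostly Ly6c2, so this order is not independent of interferon-response genes.

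Conventional dendritic cell markers summed to 23.9 and 33.5 in WT and 13.6 and 8.25 in knockout cells, with 6 of 10 above background on some array and Itgax, Xcr1, Clec9a and Clec10a on none. H2-Ab1 made up most of that sum, at 4.47 and 4.97 against 3.64 and 2.91. Of the 5 tested, 3 had differences above 0 (H2-Aa 1.43, Cd209a 0.30 and Zbtb46 0.16), and Batf3, which activated T cells also express, was lower by a log2 difference of -3.63 (adjusted p = 0.0318). B cell markers summed to 2.37 and 1.21 against 4.36 and 1.45, with 7 of 9 above background on some array and Ebf1 and Blk on none. NK cell markers summed to 5.08 and 4.25 against 8.73 and 5.32, with Ncr1 and Klra4 below background. Eomes and Klrk1 made up most of these sums and ran in opposite directions, with differences of 1.44 and -0.75. Neither passed the test (limma adjusted p = 0.280 and 0.302). CD8 T cell markers summed to 8.77 and 9.29 against 4.76 and 4.45. Cd8b1 made up most of these sums, at 3.12 and 3.21 against 2.23 and 2.14 (limma adjusted p = 0.0979). Cd8a was dim, at -4.00 and -4.34 against -3.67 and -4.99. It was above background on only 1 array per genotype and was not tested. For erythroid and platelet markers, 3 of 7 with a probe were above background, with sums of 0.695 and 0.509 against 0.877 and 1.72. CD4 T cell markers summed to 1018 and 889 in WT and 1051 and 984 in Irf4-/- cells, and were the higher on replicate 1 in both genotypes.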

How the data were processed

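Per the file headers, the authors extracted spot intensity from the one-colour arrays with Agilent Feature Extraction 11.0.1.1 on an array design built on mm9, whereas the submitters' processing notes name Agilent Feature Extraction 9.1. The deposited intensity used is the processed signal, background-subtracted by that software and not normalized between arrays. The authors' deposited table of log2 values equalled these signals scaled to the 75th percentile, up to a shift of at most 0.03, with every probe's 4-array mean set to 0. Its direction follows the sample columns, its column medians were -0.17 and 0.10 (wild type) and -0.11 and 0.12 (knockout), and it served as an alternative.

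Control and flagged spots were left out (which left 137 of 56605 probes without a value on at least 1 array), repeat spots of a probe were averaged in log2, and each array's 75th percentile was subtracted. Accessions of 32994 probes matched 22911 symbols in the RefSeq table of GRCm38.p6, used for names, and 23611 probes had no match. The brightest probe stood for a gene. A gene was tested if both arrays of 1 genotype or of the other were well above background, with limma 3.58.1 in R 4.3.3 (lmFit and eBayes, 2 residual and 2.95 prior degrees of freedom), p-values adjusted by Benjamini-Hochberg over 20505 genes, and 0.05 as the threshold. The script was tested on simulated data. Errors are limma's standard errors (SE), n is 2 arrays per genotype, and this number limits the precision. Where no probe of a gene was above background in 1 genotype, the fold is a bound. It divides the mean of the genotype with signal by a floor, which on each array of the other genotype is the lowest signal accepted as above background, or the signal of the probe itself where that is higher.

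Replicates were numbered in accession order, since the labels mark only the second array of each genotype as a repeat. After subtraction of the genotype means, arrays sharing a number correlated at r = 0.348, which over 2 pairs cannot show that the numbers mark a shared experiment. The arrays shared 1 slide and 1 scan. The labels' treatment protocol gives shorter culture times than the 2 days of the titles and design, which were taken. Normexp was run on median spot signals, because mean signals were not in the files used. The members and lists were chosen with earlier results of these data known. Array levels are given for called members, for the 3 with the largest absolute difference in each role, for members below 0 and for members with a bound. From each pathway list up to 3 genes with the largest absolute difference are named, with those past the threshold and Ifnb1, Ifnar1, Ifnar2, Irf9 and Irf7; 1 further gene is not reported here.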

Additional observations from a re-analysis of the deposited data

How the results depend on the processing

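Main values were 151 genes called, 2 members called higher (Ifi27 and Ifi205) and a member median of 1.10. Genes and members called were 5 and 0 with quantile normalization, 778 and 16 with normexp background, 260 and 4 with the deposited table, 797 and 9 with trend and robust variance moderation, and 0 and 0 with no filter on dim probes (2099 genes at an unadjusted p under 0.05). With only genes above background on all arrays, 4 members were called and the member median was 0.94; with normexp it was 0.65. With the replicate block 0 genes and 0 members were called (3195 genes unadjusted, smallest adjusted p 0.0967). Calls split into 101 higher and 50 lower in the main setting, 3 and 2 with quantile normalization, and 93 and 48 with the median of probes above background on all arrays. Leaving out 1 array gave 0 to 487 genes, 0 to 14 members and member medians of 0.59 to 1.44. Without WT replicate 1 and without WT replicate 2, where no gene was called, 1864 and 1678 genes had an unadjusted p under 0.05. These fits assume that the lone array of a genotype varies like the other.

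Leaving out 1 array also turned some differences below 0. Without knockout replicate 2, the lowest value, and without knockout replicate 1, the highest, these were -0.24 and 0.82 for Cmpk2, -0.14 and 0.26 for Dtx3l, -0.085 and 0.67 for Epsti1, -0.060 and 0.84 for Herc6, -0.52 and 0.62 for Ifi27l2a, -0.13 and 0.34 for Sp100, -0.43 and 0.84 for Stat2, -0.22 and 0.70 for Trim30a, and -0.042 and 0.51 for Zbp1. Without WT replicate 1 the difference was below 0 for Dtx3l (-0.055), Ifi27l2a (-0.12), Sp100 (-0.036), Stat2 (-0.16) and Trim30a (-0.068). The fitted fold moved by more than 1.5 times for 10 of 42 members without knockout replicate 1, for 10 without knockout replicate 2, for 5 without WT replicate 1, for 5 without WT replicate 2 and for 8 with normexp. With normexp the differences of these 8 were 0.17 for Ddx60, 0.89 for Ifi205, 0.84 for Ifi44, 0.52 for Ifit1, 1.29 for Ifit3, 2.06 for Ifit3b, 0.91 for Rsad2 and 3.95 for Rtp4. No member that could be tested changed sign under the other 11 settings. Ifi27 and Ifi205 lost their calls with quantile normalization (adjusted p = 0.0873 for both), no filter, the replicate block and without either WT array. The cause was not tested. Signals near background limit Ifit3b, Ddx60 and Ifi44, whose differences are bounds.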
